A study of Mus musculus with 5 samples.

Results

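The 8 genes described here belong to the Six-Eya-Dach network, a set of interacting transcriptional regulators, and were taken by symbol out of 55450 annotated mouse genes. The choice was made with earlier results of these data known. They are Six2, Six3, Six4 and Six6, the cofactor genes Eya1, Eya2 and Eya4, and Dach1. For each gene, peaks of the repressive histone mark H3K27me3 were read within 3000 bp of any annotated transcription start site and in the gene body, in each of 4 separate peak lists. The libraries come from wild-type mouse dermal fibroblasts, the collagen-producing cells of the skin dermis, with 2 libraries labelled embryonic day 14 (E14) and 2 labelled embryonic day 17 (E17). The study's text calls the stages E14.5 and E18.5, and the names of the labels are used here. All 4 libraries are untreated wild type and carry no transgene or deletion in the labels, and the cells were expanded in culture before chromatin was prepared, so each list describes cultured cells and not the dermis itself. The labels do not say whether the replicates came from separate litters or cultures, and the spread between them may therefore be technical. An input library is labelled as well and was not analysed here.

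Sine oculis homeobox proteins, encoded by Six2 and its relatives, bind DNA through a homeodomain and an adjoining conserved domain. Eya proteins do not bind DNA themselves but join these factors as coactivators and carry phosphatase activity, and Dach proteins act largely as corepressors in the same complexes. The network, named after fly genes for eye formation and often placed downstream of Pax factors, is known for building the eye, ear, kidney, muscle and forebrain. H3K27me3 is laid down by Polycomb repressive complex 2 and removed by the demethylases Kdm6a and Kdm6b, and in differentiated cells it commonly lies over the CpG-rich start sites of silent developmental genes. In a bulk preparation, fewer cells with the mark and less of the mark in each cell cannot be told apart.

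The lists held 21546 and 16574 peaks at E14 and 10429 and 7107 peaks at E17, so the E17 lists were shorter before any gene was considered. Covered sequence was 52.8 and 32.1 Mb at E14 against 19.996 and 14.3 Mb at E17. Read numbers are not part of the lists, depth is therefore unknown, and the absence of a peak says only that no stretch passed the threshold of that list. Fold enrichment was used only to rank peaks within a list. A test of 2 libraries against 2 has 3 splits and a smallest possible p of 0.333, so no comparison of a single gene could reach significance, and such a p does not show that the lengths were alike. None of 10 fibroblast marker genes, among them Col1a1, Pdgfra and Twist2, carried a start site peak in any of the 4 lists. Most protein-coding genes carried none either. The share with a start site peak was 24.3 and 20.6% in the E14 lists and 15.2 and 12.8% in the E17 lists. Absence at so few markers therefore says little about the cells. Among markers of other cells that the culture could hold, peaks in every library lay at Krt1 and Epcam (2 of 5 keratinocyte genes), Kdr (1 of 3 endothelial genes), Sox10 (1 of 3 melanocyte genes) and Myod1 (1 of 3 muscle genes), and 0 of 2 immune genes had a peak. A peak in every library was found at 12.0% of all protein-coding genes. Peaks do not measure expression, and the part of any other cell type in the results was not tested.

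H3K27me3 was found near a start site in every library at 7 of the 8 genes, the exception being Eya4, which had no peak in E17 replicate 2. Over all protein-coding genes the share with a peak in every library was 12.0%, and over all annotated genes it was 6.98%. Within single libraries 8, 8, 8 and 7 of the genes had a peak, against 24.3 and 20.6% of protein-coding genes at E14 and 15.2 and 12.8% at E17. Because the 8 genes were chosen with earlier results of these data known, these counts may reflect that choice. They do not measure how often genes of the network are marked. Six5, Eya3 and Dach2, family genes outside the 8, had no start site peak in any list. Six2, Six3 and Six6 were covered over the whole of their windows in every library. Six4, Dach1 and Eya1 followed, with shares that ran from 36.2 to 81.3% and overlapped, then Eya2, and Eya4 had the smallest share in every library. Across the 8 genes the median share of the windows covered was 50.3% and 55.0% in the E14 libraries and 63.1% and 58.1% in the E17 libraries. The 2645 protein-coding genes with a peak in every library, for comparison, do not include Eya4. Their median share was 50.0% and 40.4% at E14 and 27.8% and 21.0% at E17. Since 3 of the 8 genes were covered throughout, their windows could show no difference, and the median of the 8 moved with Six4. Of the 5 genes whose windows left room for a difference, 1, Dach1, was shorter in both E17 libraries, as were 86.2% of the 4170 protein-coding genes of that kind with a peak in both E14 libraries.

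**Figure D1:**
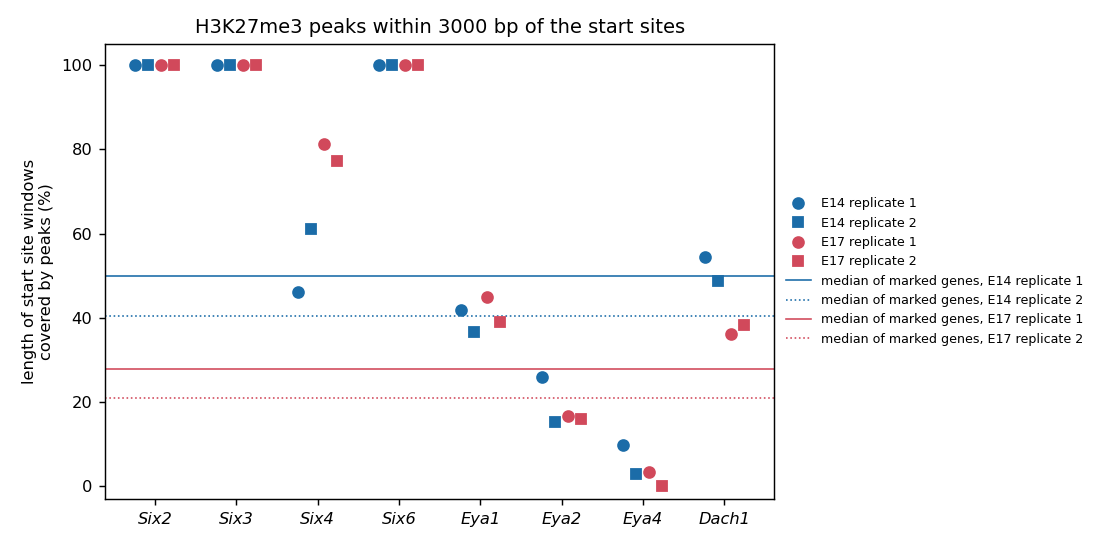
Percent of the start site windows (3000 bp either side of every annotated start site) covered by H3K27me3 peaks, for each gene and each of the 4 libraries, with one point per library. Full cover (100%) is seen in all libraries at Six2, Six3 and Six6, Six4 is higher in both E17 libraries (81.3 and 77.2%) than in both E14 libraries (46.2 and 61.2%), and Dach1 is lower.

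Six2, a factor that keeps nephron progenitors of the kidney in an undifferentiated state, lies on chromosome 17 (GRCm38, 85684277 to 85688274, minus strand). A single peak covered both of its annotated start sites and the whole 3998 bp of the gene in each library. That peak was 26739 and 18359 bp wide at E14 and 17313 and 16008 bp wide at E17. It was widest in E14 replicate 1, and the E17 widths both lay under the E14 widths. Ranked by fold enrichment within its list, it stood at percentile 99.4 and 98.9 at E14 and 99.2 and 97.1 at E17, which places it among the strongest peaks of every list. Adding the smaller peaks that fall in the same merged region, the covered length was 26739 and 19916 bp at E14 and 22450 and 16548 bp at E17, and by this measure the stages overlapped (exact permutation test, two-sided, p = 0.667). The 230 bases just before the outermost start site, chr17:85688275-85688504 on the minus strand of GRCm38, are shown because they lay inside the peak in all 4 libraries and hold 24 CG dinucleotides, which are in capitals.
Six2: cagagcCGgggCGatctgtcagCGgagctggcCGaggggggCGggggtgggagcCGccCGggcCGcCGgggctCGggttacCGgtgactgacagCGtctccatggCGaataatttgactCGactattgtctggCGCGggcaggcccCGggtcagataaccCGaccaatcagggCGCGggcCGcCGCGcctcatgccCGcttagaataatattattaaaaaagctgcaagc

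The sequence above is part of the promoter that the RefSeq table of GRCm38.p6 gives for Six2. Promoters of 6 of the 8 genes were matched in that table, and Eya1 and Eya2 were not. Counting CG dinucleotides in the 250 bases before the RefSeq start, Six2 had 26, and 9.59% of the 32851 promoters in the table had at least as many. The median over all promoters was 6.

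Six3, a forebrain and eye factor, lies on the same chromosome (17, 85613608 to 85629302, plus strand). Its 3 annotated start sites, spread over 7423 bp, were inside 1 peak in every library. The peak spanned 41648 and 34746 bp at E14 and 29732 and 24393 bp at E17, and its width stood at percentile 99.9, 99.9, 99.8 and 99.7 of the widths in the lists. The peak was narrower in both E17 libraries. All of the 15695 bp gene was covered except in E17 replicate 2, where 15447 bp was. With the smaller peaks of the merged region, the covered length was 41648 and 39531 bp at E14 and 33015 and 29219 bp at E17. Both E17 values were below both E14 values, with a mean 23.3% lower (40590 ± 1497 against 31117 ± 2684 bp, SD, n = 2; exact permutation test, two-sided, p = 0.333). The start sites of the divergent transcript Six3os1, of the antisense gene Gm28528 and of 7 short noncoding RNAs lie in this region, so the peak cannot be assigned to Six3 alone.

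Six2 and Six3 are neighbours, and the stretch between their peaks was longest in the E17 libraries. It measured 28125 and 42769 bp at E14 and 47843 and 49825 bp at E17. The stretch was not free of the mark, with 3 and 8 smaller peaks over 14486 and 13637 bp at E14 and 12 and 10 peaks over 14651 and 10921 bp at E17. E14 replicate 1 stood apart here by its few, wide peaks, while the length covered between the genes was similar in 3 of the libraries and lowest in E17 replicate 2.

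Six6, a close relative of Six3 that acts in the retina, hypothalamus and pituitary, has a single annotated start site on chromosome 12 (72939892 to 72944899, plus strand). Window and gene were covered throughout in every library. The peak at the start measured 23528 and 18727 bp at E14 and 16226 and 12978 bp at E17. With its smaller neighbours the region covered 23528 and 20653 bp at E14 and 18091 and 12978 bp at E17. The stages did not overlap, and the mean was 29.7% lower at E17 (22091 ± 2033 against 15535 ± 3615 bp, SD, n = 2; exact permutation test, two-sided, p = 0.333). The start sites of 4930447C04Rik, a protein-coding gene, and of Gm26709 and Gm38170 lie in the same region. The 250 bases before the RefSeq start, chr12:72939632-72939881 on the plus strand of GRCm38, are shown as a second stretch covered in every library. They hold 17 CG dinucleotides, in capitals, a number reached by 23.5% of promoters.
Six6: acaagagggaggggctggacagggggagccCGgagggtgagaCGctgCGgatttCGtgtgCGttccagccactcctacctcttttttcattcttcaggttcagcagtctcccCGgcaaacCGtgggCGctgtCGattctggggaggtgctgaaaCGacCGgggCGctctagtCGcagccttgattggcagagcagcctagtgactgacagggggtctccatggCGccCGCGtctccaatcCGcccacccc

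Full cover of the start site windows in every library was itself rare, being found at 3.78% of the 2645 protein-coding genes with a peak in every library (100 genes). The mean region length at Six2, Six3 and Six6 was 16.4, 23.3 and 29.7% lower, and over the 100 fully covered genes the median decrease was 17.8% with quartiles of 13.2 and 24.2%. Six2 and Six3 lay inside these quartiles and Six6 above them, and the libraries of Six2 overlapped between the stages. Over all 2645 genes it was 43.5%, with quartiles of 28.5 and 58.6%. Six2 and Six3 thus lay below the lower quartile of all marked genes, and Six6 just above it. The difference between the stages lay at the edges of the domains, and the start sites were covered in every library.

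**Figure D2:**
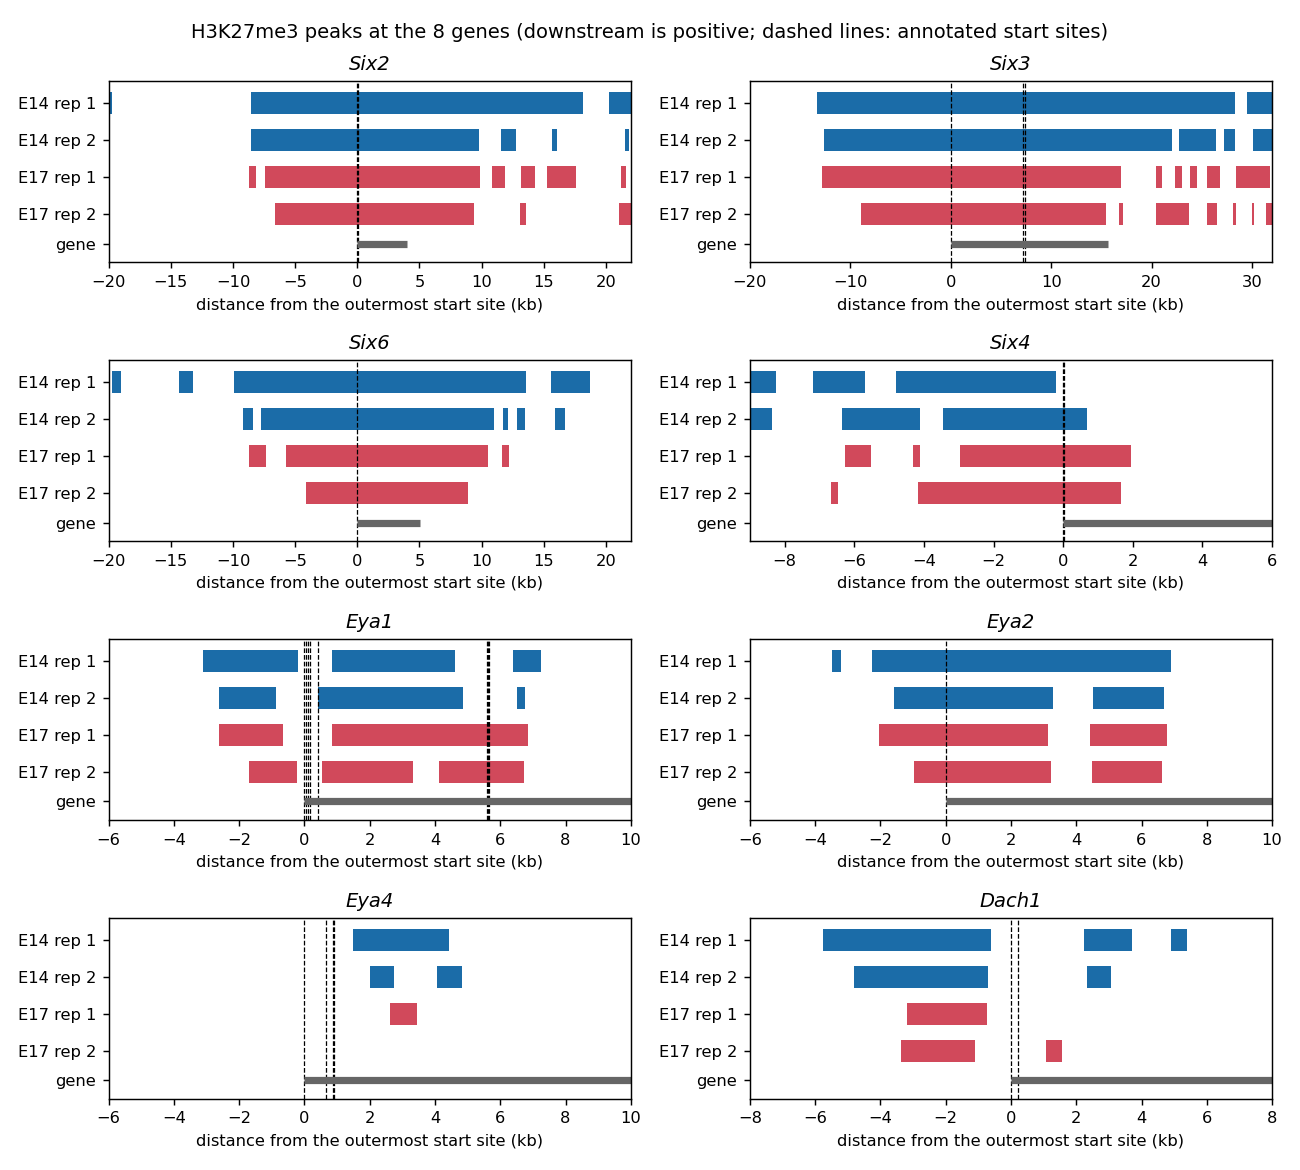
Positions of H3K27me3 peaks at the 8 genes in each library (bars, E14 blue and E17 red), by distance in kb from the outermost start site along the direction of transcription, with annotated start sites as dashed lines and the gene as a grey bar, cut at the edge of the panel. Broad peaks run across the start sites of Six2, Six3 and Six6, the peak at Six4 reaches into the gene in all libraries but E14 replicate 1, and peaks flank but do not cover the outermost starts of Eya1 and Dach1.

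Six4 behaved differently. The gene, which acts in muscle precursors, lies on chromosome 12 (73099609 to 73113456, minus strand) and has 2 annotated start sites 31 bp apart. Peaks covered 2789 and 3690 bp of its 6032 bp window at E14 and 4901 and 4658 bp at E17. Both E17 libraries were above both E14 libraries, and the means were 3240 ± 637 bp and 4780 ± 172 bp (SD, n = 2), 47.5% longer at E17 (p = 0.333 by the exact permutation test). A longer cover in both E17 libraries was found at 0.328% of the 4270 protein-coding genes with a peak in both E14 libraries (14 genes), while a shorter one was found at 84.2%. Among the 2645 with a peak in every library the longer cover was found at 0.529% and the shorter at 77.8%.

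The added length at Six4 lay downstream of the start sites, inside the gene. In E14 replicate 1 the peak ended 212 bp before the outermost start and covered none of the gene. In E14 replicate 2 it reached 689 bp past the start, and in the E17 libraries it reached 1942 and 1657 bp past it. Gene body cover was accordingly 0 and 690 bp at E14 and 1943 and 1658 bp at E17. On the upstream side the order was not the same, with the peak beginning 4796 and 3440 bp before the start at E14 and 2958 and 4178 bp before it at E17. Counting all peaks of the merged region, upstream ones included, Six4 covered 6100 and 6361 bp at E14 and 5835 and 6040 bp at E17, which was 4.70% less at E17. In total the mark at Six4 was thus not longer at E17, and more of it lay near the start sites and in the gene. The strongest peak stood at percentile 86.3 and 77.9 at E14 and 78.6 and 79.4 at E17, and its −log10 q-value was 6.64, 5.14, 4.74 and 4.71 in the same order. With a threshold of −log10 q of at least 5 both E17 peaks were lost and the difference turned to -3240 bp. The 219 bases before the outermost start, chr12:73113457-73113675 on the minus strand of GRCm38, are shown because they are where the libraries part: peaks covered 8 bases of them in E14 replicate 1 and all 219 in each of the other libraries. Capitals mark the 11 CG dinucleotides.
Six4: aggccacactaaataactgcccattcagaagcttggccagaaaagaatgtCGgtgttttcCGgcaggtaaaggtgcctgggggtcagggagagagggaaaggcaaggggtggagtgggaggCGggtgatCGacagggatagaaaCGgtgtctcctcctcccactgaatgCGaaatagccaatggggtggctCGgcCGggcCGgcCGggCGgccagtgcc

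The protein-coding gene outside the network nearest to Six4 in its share of window cover, Adra2c, still differed from it by up to 16.2 percentage points in a library.

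**Figure D3:**
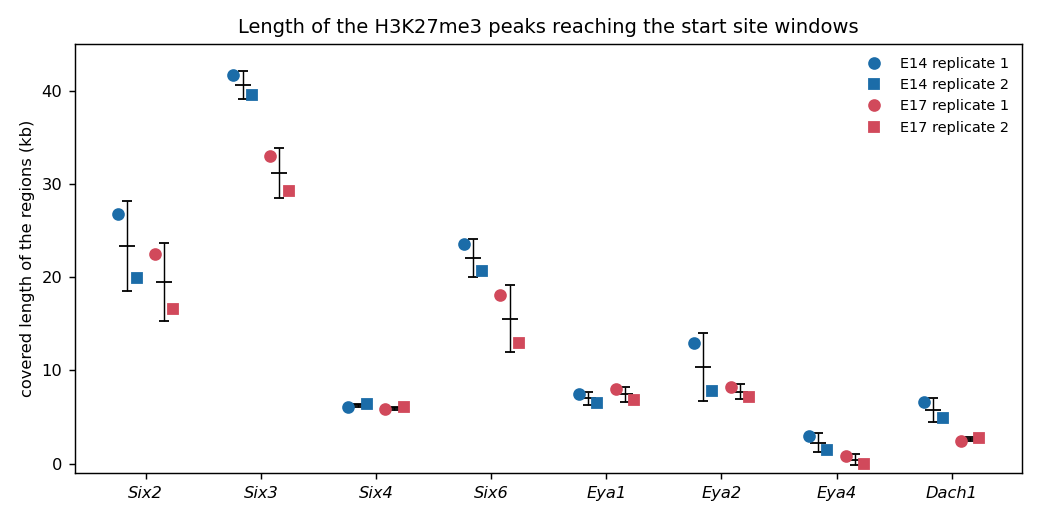
Covered length, in kb, of the merged H3K27me3 regions that reach the start site windows of each gene, with points for the libraries and bars for the mean ± SD of each stage (n = 2). The values of Six3, Six6, Eya4 and Dach1 are lower in both E17 libraries, and those of Six2, Eya1 and Eya2 overlap between stages. The values of Six4 are also lower in both E17 libraries, though all lie within 5835 to 6361 bp.

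Eya2 had the highest ranked peaks among the Eya genes. The study names it among genes of interest for the dermal papilla, the fibroblast cluster that instructs the hair follicle, and for preadipocytes, and Eya2 also acts in muscle precursors. It lies on chromosome 2 (165595032 to 165771727, plus strand) with 6 annotated start sites. The strongest peak near a start stood at percentile 96.6 and 94.9 at E14 and 95.9 and 87.6 at E17, and the outermost start was inside a peak in every library. The region around that start spans chr2:165592788-165601936, and peaks covered 9149 and 7058 bp of it at E14 and 7506 and 6301 bp at E17. Those values overlapped between the stages, and 6197 bp of the region was covered in all 4 libraries.

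Away from that start the libraries differed more. A start pair 60266 and 60286 bp into the gene was inside a peak in E17 replicate 2 alone, and the 3 remaining starts were in no peak. The body of Eya2 was covered over 19757 and 8122 bp at E14 and 7205 and 6559 bp at E17. Both E17 values were lower (13940 ± 8227 against 6882 ± 457 bp, SD, n = 2; exact permutation test, two-sided, p = 0.333), as at 82.3% of the 4055 protein-coding genes with a body peak in both E14 libraries, though the mean decrease of 50.6% came mostly from E14 replicate 1, and E14 replicate 2 was close to the E17 values. With any library counted, a shorter body cover was found at 64.5% of the 5174 protein-coding genes with a body peak in at least 1 library, and at Eya2, Eya4 and Dach1 among the 8. More than 3000 bp from every start, 6 intronic regions carried peaks, of which 6 were present in E14 replicate 1, 2 in E14 replicate 2, 2 in E17 replicate 1 and 1 in E17 replicate 2. A region at chr2:165741290-165743200, 146258 to 148168 bp into the gene and without overlap of an exon, was the only one of them found in all 4. It covered 1911 and 1039 bp at E14 and 446 and 405 bp at E17, and its peaks stood at percentile 85.5, 78.8, 68.8 and 42.5. The peaks in this intron were thus shorter in both E17 libraries. The peaks share 375 bp in all libraries, and the central 300 bases of these, chr2:165742069-165742368 on the plus strand of GRCm38, are shown with their 11 CG dinucleotides in capitals.
Eya2 intron: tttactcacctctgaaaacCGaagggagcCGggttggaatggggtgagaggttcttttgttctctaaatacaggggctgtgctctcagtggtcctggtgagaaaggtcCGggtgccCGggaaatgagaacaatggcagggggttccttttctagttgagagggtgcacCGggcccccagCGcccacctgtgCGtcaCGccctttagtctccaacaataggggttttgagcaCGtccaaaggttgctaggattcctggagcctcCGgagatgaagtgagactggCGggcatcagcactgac

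**Figure D4:**
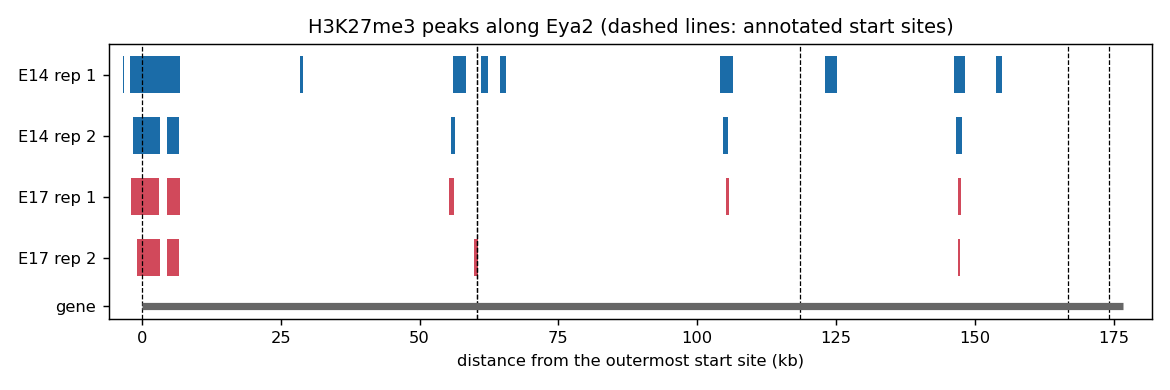
H3K27me3 peaks along the whole of Eya2 in each library, by distance in kb from its outermost start site, with annotated start sites as dashed lines. Peaks at the outermost start are present in all 4 libraries, and of the 6 intronic regions away from any start only that 146258 bp into the gene is.

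Eya1, a cofactor needed for ear, kidney and branchial arch development, lies on chromosome 1 (14168954 to 14310235, minus strand) with 9 annotated start sites. Near these, peaks covered 7399 and 6465 bp at E14 and 7957 and 6870 bp at E17. The stages overlapped, and the mean differed by 481.5 bp towards E17 (6932 ± 660 against 7414 ± 769 bp, SD, n = 2; exact permutation test, two-sided, p = 0.667). In the gene body the cover was 4867 and 4722 bp at E14 and 5984 and 5412 bp at E17. Here both E17 libraries were higher, by 18.8% in the mean (exact permutation test, two-sided, p = 0.333), and Eya1 and Six4 were the members with longer body cover at E17, against 0.734% of the 5174 protein-coding genes with a body peak in at least 1 library.

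The outermost starts of Eya1 were not themselves covered. Peaks stood on either side of them, ending 198, 881, 650 and 240 bp upstream and beginning 849, 414, 852 and 532 bp downstream. A stretch of 611 bp, chr1:14309822-14310432, held 5 start sites and no peak in any library. It has 6.06 CG dinucleotides per 100 bp, more than the 1.48 and 0.828 of the marked regions on its downstream and upstream sides. A further 3 starts, 5607 to 5665 bp into the gene, were inside a peak in both E17 libraries and in neither E14 library. Those starts are where the longer body cover of E17 was found. The strongest peak of Eya1 stood at percentile 86.3, 69.4, 71.8 and 85.7, without an order between the stages.

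Eya4, known from hereditary hearing loss and heart disease, was the least marked of the 8. On chromosome 10 (23102963 to 23350786, minus strand), none of its 8 annotated starts was inside a peak in any library. The cover near its starts was 2422 and 752 bp at E14 and 836 and 0 bp at E17, so the stages overlapped. It came from 1 region, chr10:23345969-23349308, that begins downstream of the first starts. Its nearest peak began 1478 and 2004 bp past the outermost start at E14 and 2620 bp past it in E17 replicate 1. Over the whole gene the peaks covered 2949 and 1505 bp at E14 and 836 and 0 bp at E17, with no overlap of the stages (p = 0.333 by the two-sided exact permutation test). The promoters in the RefSeq table lie ahead of this region and hold 35 and 25 CG dinucleotides, reached by 2.97 and 10.7% of all promoters, and no peak covered a base of them in any library. A CG-rich promoter was thus not matched by a peak at this gene.

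Dach1, the corepressor of the set, known from limb, eye and kidney development, lies on chromosome 14 (97786853 to 98169765, minus strand). It was the only member with shorter start site cover in both E17 libraries. Its peaks covered 3386 and 3038 bp at E14 and 2251 and 2388 bp at E17 of a 6223 bp window. The mean was 27.8% lower (3212 ± 246 against 2320 ± 96.9 bp, SD, n = 2; exact permutation test, two-sided, p = 0.333), in a background where 84.2% of genes with a peak in both E14 libraries were shorter in this way. Cover of the gene itself was 1966 and 735 bp at E14 and 0 and 491 bp at E17. Its strongest peak stood at percentile 92.8 and 80.6 at E14 and at 80.8 and 49.9 at E17, so the stages overlapped in rank. With the lists reduced to the 7107 peaks of highest −log10 q-value each, the difference at Dach1 was -25 bp in place of -892.5 bp and the stages overlapped.

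Both annotated starts of Dach1 lay in a stretch of 1682 bp, chr14:98168698-98170379, that no peak entered. Upstream of the starts the nearest peak edge was at 615 and 698 bp at E14 and at 750 and 1104 bp at E17. Downstream it was at 2223 and 2320 bp at E14 and at 1068 bp in E17 replicate 2, and E17 replicate 1 had no downstream peak. The upstream edge thus stood farther from the start in both E17 libraries, and the downstream edge stood nearer in the E17 library that had one. This upstream region covered 5144 and 4122 bp at E14 and 2447 and 2280 bp at E17, and it is poor in CG dinucleotides at 0.700 per 100 bp, against 5.65 in the stretch without peaks. Downstream, the region with peaks in both E14 libraries had 1.35 per 100 bp. The region with a peak in E17 replicate 2 alone, chr14:98168207-98168697, had 7.54, so peaks at Dach1 were not confined to CG-poor sequence. The 250 bases before the outermost start, chr14:98169766-98170015 on the minus strand of GRCm38, are shown for contrast with Six2 and Six6. No peak covered any of them in any library, although they hold 13 CG dinucleotides, in capitals, and 31.5% of promoters have at least as many. The Six3 promoter of the RefSeq table holds 10 and was covered throughout in every library, so cover did not follow the CG number at these promoters.
Dach1: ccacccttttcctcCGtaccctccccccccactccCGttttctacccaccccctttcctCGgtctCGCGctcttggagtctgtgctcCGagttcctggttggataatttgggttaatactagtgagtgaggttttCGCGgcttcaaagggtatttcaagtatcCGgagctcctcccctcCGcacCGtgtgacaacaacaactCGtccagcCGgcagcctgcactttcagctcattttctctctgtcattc

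Members also differed in where the mark stood relative to CG dinucleotides. Regions with a peak in every library had a median of 1.96 CG per 100 bp (quartiles 1.35 and 2.66, 4261 regions), and chromosome 1 as a whole had 0.770. The main regions of Six2, Six3, Six4, Six6 and Eya2 had 2.53, 2.28, 2.27, 1.76 and 2.57, which lie inside these quartiles. The downstream region of Eya1 (1.48) and the region of Eya4 (2.31, with peaks in 3 libraries) did too. The upstream regions of Eya1 (0.828) and Dach1 (0.700) lay below the lower quartile. The downstream regions of Dach1, neither with a peak in every library, had 1.35 (both E14 libraries) and 7.54 (E17 replicate 2 alone). Around the outermost start site, in 1 kb, the density was 11.9 at Six2, 8.4 at Eya2, 6.2 at Six6 and 4.9 at Six3, where the start was in a peak in every library, and 4.7 at Six4, where it was in 3. It was 5.0 at Eya1, 4.4 at Dach1 and 4.2 at Eya4, where it was in none. The highest densities were thus at covered starts, while Eya1 lay above Six3 and Six4.

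Over the 33 annotated start sites of the 8 genes, 7 and 9 were inside a peak at E14 and 12 and 14 at E17, which is 21.2, 27.3, 36.4 and 42.4%. The 2645 protein-coding genes with a peak in every library have 11186 start sites, and Eya4 is not among these genes. Of those sites, 50.7 and 45.6% were inside a peak at E14 and 37.5 and 32.5% at E17. Over all 132758 annotated start sites the share was 6.98, 5.97, 4.23 and 3.51%. The members' number was higher in both E17 libraries, where both shares were lower, and the sites that made the difference were those of Six4, not inside a peak in E14 replicate 1, the 3 internal starts of Eya1 and, in E17 replicate 2, the internal pair of Eya2. Start sites of 1 gene often lie within a few bases of each other and are not independent. In all, 7 sites were inside a peak in every library (those of Six2, Six3 and Six6 and the outermost of Eya2), and 19 in none. Among the 2645 protein-coding genes with a peak in every library, the outermost start was inside a peak in every library at 44.5% and in none at 24.9%. Of the 7 members in that set, 4 were of the first kind and 2 of the second, Eya1 and Dach1.

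**Figure D5:**
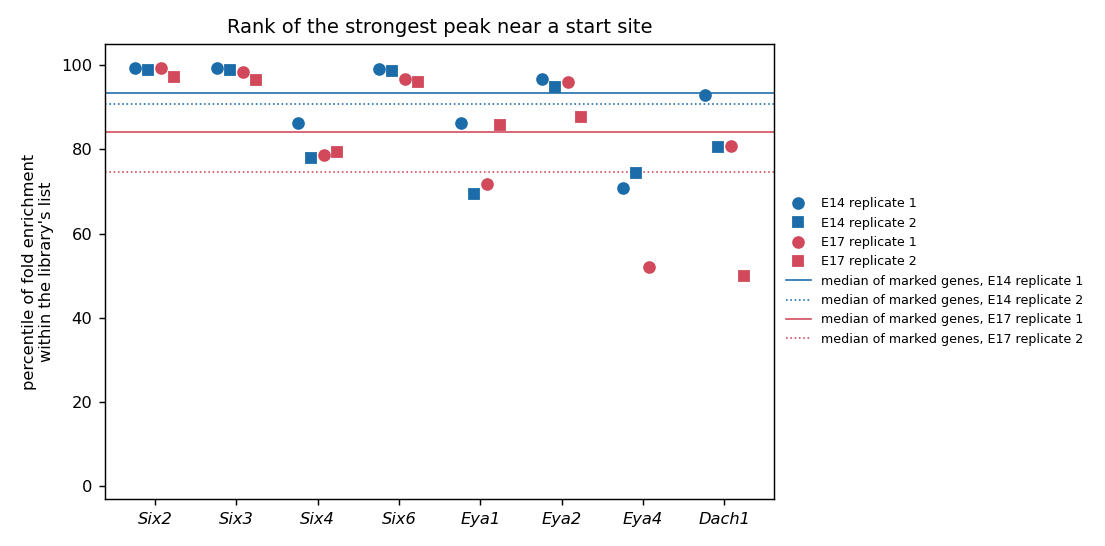
Percentile, by fold enrichment within its own list, of the strongest H3K27me3 peak near the start sites of each gene, with one point per library. Six2, Six3 and Six6 stay above 95 in all libraries, while Dach1 runs from 49.9 to 92.8 and Eya4 has no peak in E17 replicate 2.

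By the mean percentile of the strongest peak at E14, the order of the 7 genes with a peak in every library was Six2 (99.2 ± 0.321, SD, n = 2), Six3 (99.0 ± 0.256), Six6 (98.8 ± 0.404), Eya2 (95.7 ± 1.23), Dach1 (86.7 ± 8.60), Six4 (82.1 ± 6.0) and Eya1 (77.8 ± 12.0). At E17 it was Six2 (98.2 ± 1.5), Six3 (97.4 ± 1.38), Six6 (96.3 ± 0.579), Eya2 (91.8 ± 5.86), Six4 (79.0 ± 0.558), Eya1 (78.8 ± 9.83) and Dach1 (65.3 ± 21.8). The first 4 kept their order and the last 3 did not, and these 3 did not differ beyond their spread at either stage. With all 4 libraries averaged, 5.33% of the 2645 marked genes had a mean percentile at least as high as Six2, 6.92% as Six3, 9.07% as Six6 and 22.5% as Eya2. For Six4, Eya1 and Dach1 that share was 60.6, 64.8 and 69.7%, so their peaks were of ordinary strength among marked genes.

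Summed over the 8 genes, the cover near start sites was 47979 and 42745 bp at E14 and 45196 and 42909 bp at E17. The stages overlapped and the mean was 2.89% lower at E17. The decrease was 5.80% between the libraries numbered 1 and -0.384%, so slightly higher at E17, between those numbered 2 (SD 4.37). Over the protein-coding genes with a peak in both E14 libraries, as all 8 members had, the summed decrease was 45.1%. Over those with a peak in every library, a set without Eya4, it was 35.0%, and over the whole lists it was 59.6%. Six2, Six3 and Six6 give much of the members' sum and could show no difference near their starts, since their domains overran the windows. In the gene bodies the sums were 54240 and 40475 bp at E14 and 40669 and 38573 bp at E17, a decrease of 16.3% (25.02 and 4.70% within replicate numbers, SD 14.4) that was 2.11% without E14 replicate 1. By the merged regions, which are not limited by the window, 4 of the 7 genes with a peak in every library (Six3, Six4, Six6 and Dach1) were shorter in both E17 libraries and 0 were longer, while 86.8% of the 2645 marked genes were shorter and 0.302% longer. The decrease was below the median of marked genes at 6 of the 7 and below their lower quartile at 5.

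Among other genes of the families, no start site peak was listed at Six5, Eya3 or Dach2. All 5 Pax genes examined were marked in every library, against 12.0% of protein-coding genes. Pax2, Pax3 and Pax7 were covered over the whole of their windows throughout, and Pax6, the eye and forebrain factor, over 26140 and 25962 bp at E14 and 25455 and 25470 bp at E17. Pax8, which acts in thyroid and kidney, had 5280, 5244, 4472 and 5162 bp. Of 10 cofactor genes, 3 had a peak in every library, against 12.0% of protein-coding genes (the corepressors Tle1 and Tle4, and Sobp, which encodes the sine oculis binding protein homologue) and 6 had none. Tle2 had 1860 and 953 bp at E14 and no peak at E17.

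Of 9 genes placed downstream of the network or regulated with it, 3 were marked in every library, and 3 had no peak. Sall1, a kidney and limb factor, was covered over the whole of its window in all 4. Myod1, the muscle determination factor, had 5619 and 4460 bp at E14 and 3621 and 3122 bp at E17, and Ret, the receptor for Gdnf, had 5322 and 3485 bp at E14 and 2841 and 2274 bp at E17. Both were lower in both E17 libraries. Gdnf itself, the ligand that draws out the ureteric bud, had 3540 and 2150 bp at E14 and no peak at E17. Ccna1 had peaks in 3 libraries (6940, 3237 and 937 bp, none in E17 replicate 2) and Osr1 in E14 replicate 1 alone (458 bp). Over these 24 Pax, cofactor and downstream genes, 11 were marked in every library, 9 in none and 4 in some. The share marked in every library over all protein-coding genes was 12.0%, and these 24 were not drawn at random. Of the 14 with a peak in both E14 libraries, 4 (Pax2, Pax3, Pax7 and Sall1) were covered throughout. Among the other 10, 9 were shorter and 0 longer in both E17 libraries, the exception being Tle1, where the share of shorter genes over all such protein-coding genes was 86.2%.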

How the data were processed

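H3K27me3 ChIP-seq peak lists of 4 libraries were used, 2 labelled E14 and 2 labelled E17. The submitters' processing notes name mm10, Bowtie2 2.3.5.1, SAMtools 1.9, MACS2 2.2.7.1 and deepTools 3.5.1. The authors called broad peaks for each library with a q-value cutoff of 0.01, but the control and read filters are not given in the sources used here. Each deposited list gives a fold enrichment per peak, a ratio over local background, and −log10 p- and q-values. The methods state subsampling of some later-stage samples without saying whether it covers these. Labels and methods differ on medium, shearing and sequencing kit (DMEM with serum, sonication and Ion Torrent against AmnioMAX, an enzymatic kit and Illumina). The lists hold no depth, so no counting interval is given.

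Start sites came from GENCODE vM21 on GRCm38 (55450 genes, 21951 protein-coding), with windows of 3000 bp and an overlap of at least 1 bp. Peaks of the 4 lists that overlapped were merged into regions. For lengths at single genes the test was an exact permutation of libraries (two-sided, 3 splits). Percentiles are ranks within a list. The genes named are the 8 members, other genes of the families, the listed Pax, cofactor and downstream genes with a peak, genes sharing a member's region, and the gene nearest a member in window cover. The members and lists were chosen with earlier results of these data known, and some listed genes are not reported here. Scripts ran under Python 3.11.15 with scipy 1.17.1, pandas 2.3.3 and numpy 2.4.6 and were tested on simulated data. Alternatives were −log10 q of at least 3 or 5, peaks of at least 1000 bp, equal numbers of peaks, windows of 1000 and 5000 bp, protein-coding start sites, 500 bp of cover, a replicate block and leaving out each library.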

Additional observations from a re-analysis of the deposited data

How the results depend on the processing

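With −log10 q of at least 5, 4 in place of 7 genes kept a peak in every library. Shorter start site cover in both E17 libraries was then found at 2 genes in place of 1, at 0 with 7107 peaks per list, at 2 with windows of 5000 bp, and at 1 to 3 when a library was left out (3 without E14 replicate 2, 2 without E17 replicate 1). The summed decrease near start sites, 2.89%, was 14.6% at −log10 q of at least 5, -3.67% with equal numbers of peaks, -17.6% with windows of 1000 bp and 11.2% with windows of 5000 bp. Leaving out a library moved it from -3.06% (without E14 replicate 1) to 8.18% (without E14 replicate 2). The decrease in gene bodies, 16.3%, was 0.940% with equal numbers of peaks and 2.11% (without E14 replicate 1) to 26.95% (without E14 replicate 2) with a library left out. The direction of the difference between stages turned at Six4 (-3240 bp) and Eya1 (-474.5 bp) at −log10 q of at least 5, since peaks below that value were removed, and at Eya2 (237 bp) with windows of 1000 bp. Without a library it ran from -62 bp (without E17 replicate 1) to 1025 bp at Eya1 and from -2861 bp (without E14 replicate 2) to 322 bp (without E14 replicate 1) at Eya2. The cause of the other changes was not tested. Over the 5 genes with a difference between stages, 49 of 55 values kept their direction, 5 turned and 1 became 0 (Eya4 at −log10 q of at least 5). Six2, Six3 and Six6 had a difference of 0 bp, which 32 of 33 values repeated, Six6 differing by -446 bp with windows of 5000 bp. The labels number the replicates, and deviations of equally numbered libraries correlated at 0.208 over 2645 genes. Only 2 pairs of libraries stand behind that value, too few to tell whether the numbers pair the libraries. They are treated as unpaired. As a replicate block, the mean decrease within numbers was 2.71% near start sites and 14.9% in gene bodies, against 2.89 and 16.3% unblocked. Only these sums were taken within numbers, and the comparisons of single genes were not redone that way. The alternatives were run on the members only, and the shares over all genes were not recomputed under them. Whether the contrast between the members and other marked genes holds at equal list lengths was thus not tested. Depth is unknown, and a gene without a peak can lie just under a list's threshold.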

Other observations

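The genes whose share of start site cover was nearest to that of a member, among protein-coding genes outside the network, were Pip5k1b for Eya1 (largest difference 3.18 percentage points in any library), Gabbr2 for Eya2 (1.36), Daam1 for Eya4 (0.285) and Htr6 for Dach1 (2.37). Likeness was taken over 4 libraries. Six2, Six3 and Six6 were tied with 93 such genes at full cover. The start site of the noncoding gene AC166821.1 lies in the region of Six2, and that of Gm28163 in a region near a start site of Eya2.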
